A study of Mus musculus with 9 samples.

Results

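The basal transcription machinery of oocytes was described here through 9 genes, namely Tbpl2, Tbp, Tbpl1, Taf3, Taf4, Taf4b, Taf7, Gtf2a1 and Gtf2b. They were chosen by gene name among the 28051 genes of the deposited matrices, and all 9 were found and had enough UMIs to be tested. RNA had been prepared from pools of 30 mouse oocytes in the mid growth phase, 10 of 50–55 µm and 20 of 55–60 µm in diameter, which were isolated from dissociated ovaries at 18 days postpartum (dpp). The genotypes were XX, XO and XY, with 3 pools of each, named XX1 to XX3, XO1 to XO3 and XY1 to XY3. The labels give C57BL/6 as the strain of all pools. XY females and the XX females, their littermates, had fathers with the Y chromosome TIR on the B6 background and B6 mothers. XO females had B6 mothers too, but their fathers carried the Patchy Fur (Paf) mutation, which had been moved from C3H/HeSnJ to B6 by repeated backcrossing. The XO genotype and this other paternal line therefore cannot be told apart.

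Transcription by RNA polymerase II starts when general transcription factors assemble on a promoter. In most cells TBP, the TATA-binding protein, and its associated factors (TAFs) form the complex TFIID, which is joined by TFIIA and TFIIB before the polymerase is recruited. Growing mouse oocytes are known for another arrangement, in which TBPL2 (also called TBP2 or TRF3), a paralog of TBP made in oocytes, takes over in a complex with TFIIA, and female mice without Tbpl2 are sterile. TBPL1 (TRF2 or TLF) is a further paralog, known best from male germ cells. TAF4B is a gonadal paralog of the TFIID subunit TAF4 and is required for normal follicles, whereas TAF3 and TAF7 are further TFIID subunits. Gtf2a1 encodes the precursor of the large subunits of TFIIA, and Gtf2b encodes TFIIB.

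Each pool had between 2130145 and 3157338 UMIs on genes. A UMI (unique molecular identifier) marks the 5′ end of 1 transcript, so that PCR copies are counted once. Levels are given as normalized CPM, which are UMIs scaled by the authors to the total per pool and by a factor from ERCC spike-ins, RNAs added in known amounts. This factor compares the spike-ins with each other, so the levels are not absolute amounts of RNA. Pools XO1 and XY1 stood apart, since 13.1 and 10.8% of their UMIs were mitochondrial, compared with 2.65 to 6.02% in the other 7 pools. The paper, from a heatmap of highly expressed and variable genes, names XX1, XO2 and XY1 as less similar to their other replicates. The number of the pool called XO1 here is uncertain, as given under the processing. All 11 oocyte markers listed were detected in the pools, with summed levels of 16076 to 26998 normalized CPM. The study calls the pools biological triplicates, and the labels do not say whether they came from separate females, so p-values measure the spread between these pools. As these were bulk samples, fewer cells of a type and less RNA per cell cannot be told apart.

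Over the 9 pools the mean level was highest for Gtf2a1, at 198 normalized CPM, followed by Gtf2b at 138, Tbp at 61.8, Taf3 at 49.4, Tbpl2 at 33.3, Taf7 at 32.0, Taf4b at 19.5, Taf4 at 9.01 and Tbpl1 at 3.64. Of the neighbours in this order, Taf4b and Taf4 had ranges over the pools that did not overlap, and all other neighbours overlapped. The tag at the 5′ end is counted once per transcript whatever its length. When the levels were divided by the exon length of the gene nevertheless, the order became Gtf2a1 with 31.8 normalized CPM per kb, Gtf2b with 30.1, Tbpl2 with 24.1, Taf7 with 9.69, Taf3 with 7.73, Tbp with 4.55, Taf4b with 3.78, Taf4 with 1.95 and Tbpl1 with 1.11. Tbpl2, whose exons cover 1379 bp, thus stood above Tbp, with 13576 bp, per kb but not in the mean per transcript end. These lengths join the exons of all annotated transcripts of a gene and are not those of 1 transcript. In XX the means per transcript end were close, at 34.7 normalized CPM for Tbpl2 and 36.2 for Tbp, and Tbpl2 exceeded Tbp in XX1, XX2, XO1 and XY1.

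The order differed between genotypes. In XX oocytes Gtf2a1 had a mean of 167 ± 23.9 normalized CPM (SD, n = 3), and its range lay above that of Taf3, the next gene, at 52.4 ± 7.11. In XO oocytes Gtf2b came out on top, at 334 ± 321, but its range overlapped that of Gtf2a1, at 227 ± 126. In XY oocytes Gtf2a1 was again at the top with 201 ± 67.1, without overlap with Gtf2b at 50.3 ± 39.2. Taf4b was above Taf4 without overlap in all 3 genotypes. Some genes have an annotated span that overlaps a small or noncoding gene on the same strand, namely Gtf2a1 with Gm25776, Taf4b with AC133172.1 and Tbpl1 with Mir7663. Whether their exons overlap was not examined, so it is uncertain whether the counting had tags to divide.

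**Figure D1:**
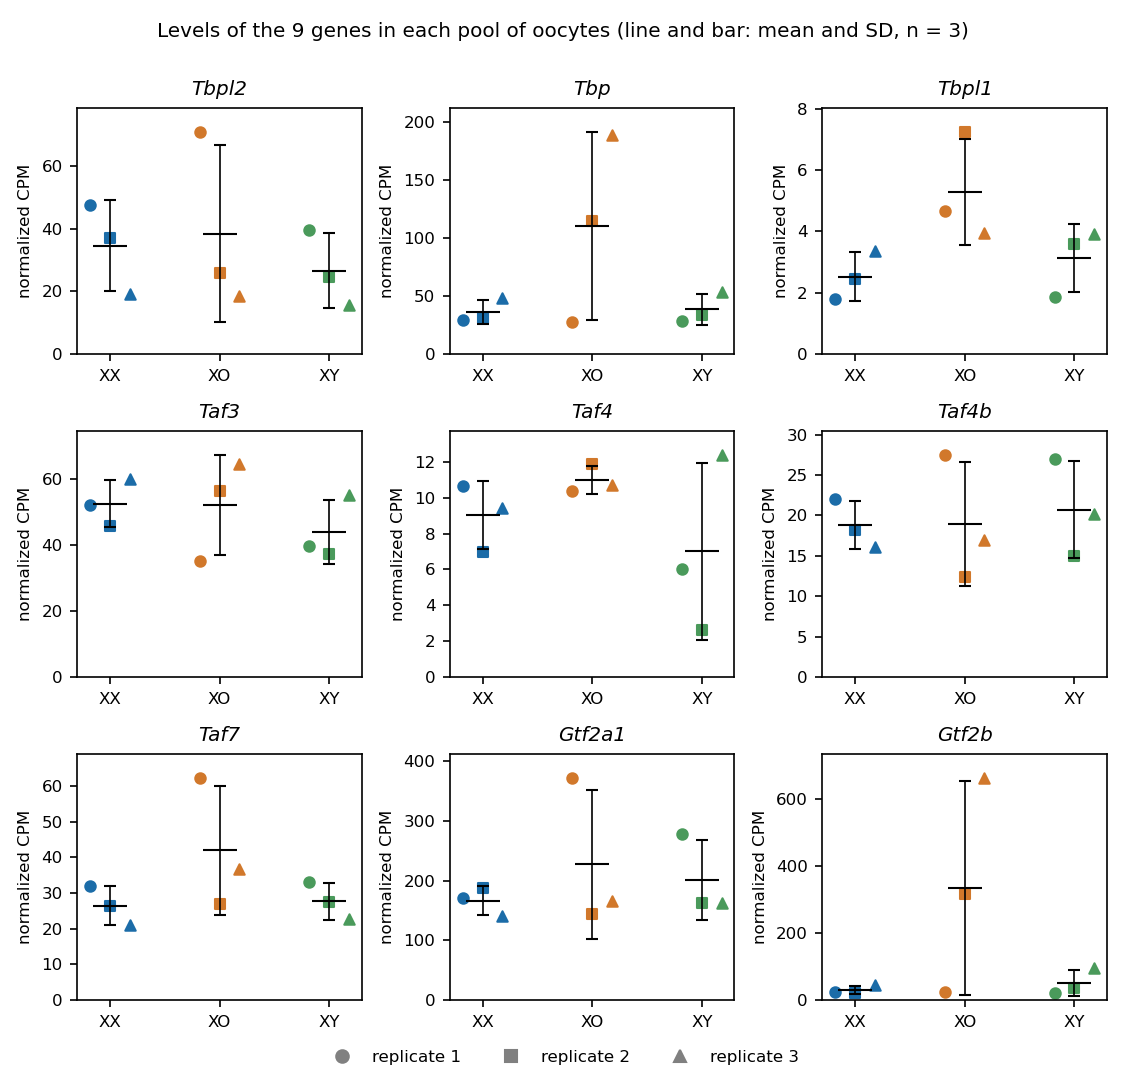
Normalized CPM (y axis, linear, from 0) of the 9 genes in each pool by genotype (x axis), with a circle, square or triangle for replicate 1, 2 or 3 and a line with bar for the mean and SD. Tbp and Gtf2b are high in XO2 and XO3 (114.8 and 189 normalized CPM for Tbp), while Tbpl2, Taf4b, Taf7 and Gtf2a1 have their highest value in XO1.

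Among the 9 genes, 3 were lower in XX than in XO oocytes at an unadjusted p below 0.05 in the edgeR quasi-likelihood test, namely Gtf2b, Tbp and Tbpl1, and none was higher. Of all 10993 genes tested, 18.1% passed this threshold, 1.4% as higher and 16.7% as lower in XX. None of the 9 genes passed between XX and XY, where 5.8% of all genes did, 1.41% as higher and 4.39% as lower in XX. Between XY and XO, 2 of the 9, Gtf2b and Tbp, were lower in XY, where 9.93% of all genes passed, 8.24% in this direction and 1.69% in the other. After Benjamini-Hochberg adjustment none of the 9 was below 0.05 in any comparison, as against 0.0% of all genes for XX against XO, 0.0819% for XX against XY and 0.0364% for XY against XO. The comparisons share pools and are not independent of each other.

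The differences depend on the scaling. With spike-in factors the median log2 fold change of all genes was -0.46 for XX against XO, -0.19 for XX against XY and -0.30 for XY against XO. The corresponding medians of the 9 genes were -0.45, -0.10 and -0.60. With TMM factors computed from the genes themselves, the medians of all genes were -0.03, -0.04 and -0.02, and those of the 9 genes -0.07, 0.07 and -0.35. Hence each difference of the 9 genes and of the wider list below is followed by its value relative to the median of all genes under spike-in factors.

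**Figure D2:**
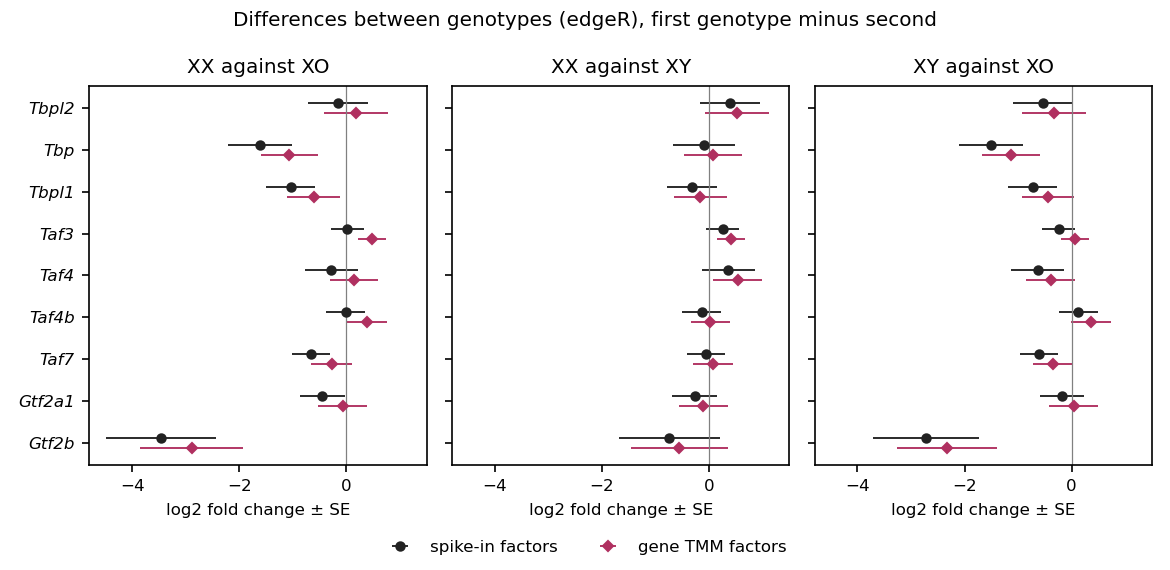
Log2 fold changes with SE (x axis) of the 9 genes in the 3 comparisons, first genotype minus second, from edgeR with spike-in factors (black circles) and with TMM factors from genes (red diamonds). Gtf2b is far below 0 against XO under either scaling, whereas Tbpl2 lies within about 1 SE of 0 in each comparison.

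Tbpl2 (ENSMUSG00000061809.8, GRCm38 chromosome 2, 24071721 to 24096595, minus strand), the oocyte paralog of TBP, was found in every pool. It had 134, 106 and 63 UMIs in XX1 to XX3, 137, 50 and 33 in XO1 to XO3, and 85, 76 and 52 in XY1 to XY3. The levels were 47.7, 37.1 and 19.2 normalized CPM in XX, 70.9, 25.9 and 18.6 in XO, and 39.5, 24.7 and 15.7 in XY. The ranges of the genotypes overlapped, and the pool numbered 1 was the highest of every genotype. The XX to XO difference was -0.15 ± 0.56 (log2 fold change ± SE, edgeR adjusted p = 0.895), or 0.30 relative to the median of all genes. The 95% interval of the fold, 0.377 to 2.15, covers changes in either direction, and with TMM factors from genes the sign turned to 0.19. XX and XY differed by 0.38 ± 0.56 (edgeR adjusted p = 1.00), or 0.58 relative to that median, with an interval of 0.546- to 3.12-fold. XY and XO differed by -0.54 ± 0.56 (edgeR adjusted p = 0.725), or -0.24 relative to the median, with an interval of 0.287- to 1.66-fold. Hence no difference of Tbpl2 between genotypes exceeded the spread between pools in this fit. In a fit with 2 surrogate variables estimated here, Tbpl2 was called as higher in XX than in XY, by 0.55 ± 0.24 (edgeR adjusted p = 0.207). It was also called there as lower in XY than in XO (-0.55 ± 0.25, edgeR adjusted p = 0.197). The paper, whose own fit included surrogate variables for batch effects, reports no difference of this gene, as Tbp2, between the genotypes.

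Tbp (ENSMUSG00000014767.16, chromosome 17, 15499888 to 15528379, plus strand), the general TATA-binding protein, showed another distribution. It had 82, 89 and 158 UMIs in XX, 53, 222 and 335 in XO, and 61, 104 and 178 in XY. The levels were 29.2, 31.2 and 48.1 normalized CPM in XX, 27.4, 114.8 and 189 in XO, and 28.4, 33.9 and 53.7 in XY. XO2 and XO3 lay above all other pools, whereas XO1 was the lowest of the 9. Tbp was lower in XX than in XO, with a log2 fold change of -1.61 ± 0.59 (edgeR adjusted p = 0.229), or -1.15 relative to the median of all genes, and lower in XY than in XO, with a log2 fold change of -1.51 ± 0.59 (edgeR adjusted p = 0.485), or -1.21 relative to that median. XX and XY differed by -0.10 ± 0.58 (edgeR adjusted p = 1.00), or 0.09 relative to the median. Neither call held with TMM factors from genes (-1.07 and -1.14, edgeR adjusted p = 0.468 and 0.565). Both held with the size factors of DESeq2, also from genes (-1.18 and -1.27, DESeq2 adjusted p = 0.303 and 0.3535). They also held with a replicate block, which pairs pools of like number (-1.37 and -1.31, edgeR adjusted p = 0.119 and 0.240). With 2 surrogate variables the difference of XX from XO was -0.48 (edgeR adjusted p = 0.414) and no longer a call, while that of XY from XO remained one at -0.64 (edgeR adjusted p = 0.0602). Without XO3 the differences were -0.97 and -0.88. The call of XX against XO was lost without XX1, XX2 or XO3, and that of XY against XO without any pool other than XX2, XO1 or XY3, with differences over all such fits from -2.04 to -0.88.

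Tbpl1 (ENSMUSG00000071359.13, chromosome 10, 22703879 to 22731938, minus strand), the further paralog, was near the lower end of what was counted, with 5, 7 and 11 UMIs in XX, 9, 14 and 7 in XO, and 4, 11 and 13 in XY. Its levels were 1.78, 2.45 and 3.35 normalized CPM in XX, 4.66, 7.24 and 3.95 in XO, and 1.86, 3.58 and 3.92 in XY. The 3 XO pools lay above all XX and XY pools, but XO3 and XY3 were almost level. Of all genes, 16.4% had XX and XO ranges that did not overlap (13.6% with XX below and 2.79% with XX above), and 10.2% had such XY and XO ranges (6.34% with XY below and 3.88% with XY above). XX and XY did not overlap in 15.8% of all genes (11.7% with XX below and 4.15% with XX above) and in none of the 9 genes. Tbpl1 was lower in XX than in XO, with a log2 fold change of -1.04 ± 0.46 (edgeR adjusted p = 0.275), or -0.59 relative to the median of all genes. This call was lost with either other scaling, without the filter on low counts, and without any pool other than XO3, with differences between -1.24 and -0.61. XY and XO differed by -0.73 ± 0.46 (edgeR adjusted p = 0.577), or -0.43 relative to the median.

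The balance of the paralogs within a pool does not depend on scaling. Tbpl2 accounted for 60.6% of the UMIs of Tbpl2, Tbp and Tbpl1 in XX1 (95% Wilson interval 54.1 to 66.8), 52.5% in XX2 (45.6 to 59.3) and 27.2% in XX3 (21.8 to 33.2). In XO it was 68.8% in XO1 (62.1 to 74.9), 17.5% in XO2 (13.5 to 22.3) and 8.8% in XO3 (6.33 to 12.1). In XY it was 56.7% in XY1 (48.7 to 64.3), 39.8% in XY2 (33.1 to 46.9) and 21.4% in XY3 (16.7 to 27.0). Thus Tbpl2 outnumbered Tbp in XX1, XX2, XO1 and XY1, and Tbp outnumbered Tbpl2 in the other 5 pools. In UMIs, Tbpl2 exceeded Tbp by 2.58-fold in XO1, whereas Tbp exceeded Tbpl2 by 10.2-fold in XO3. The Wilson intervals of the pools of 1 genotype did not overlap, other than those of XX1 and XX2. The means of the genotypes were 46.8 ± 17.5% in XX, 31.7 ± 32.5% in XO and 39.3 ± 17.6% in XY (SD, n = 3), and they did not differ beyond the spread between pools (exact permutation test over 1680 assignments, two-sided, p = 0.732, smallest possible 0.00357). Wilson intervals here cover counting error only.

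**Figure D3:**
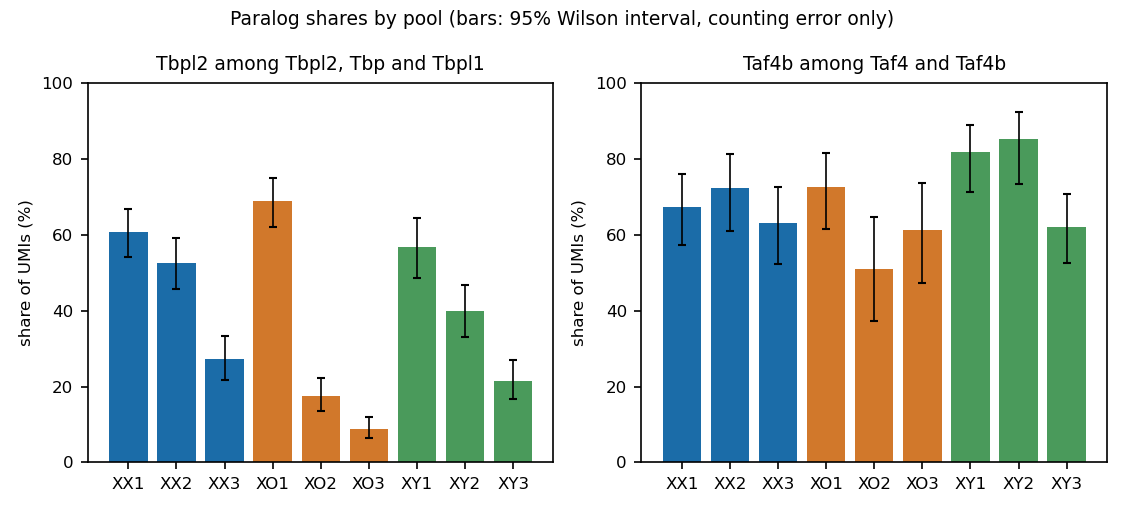
Share of UMIs (y axis, %, from 0 to 100) of Tbpl2 among the 3 TBP family genes (left) and of Taf4b among Taf4 and Taf4b (right) in each pool (x axis), with bars for the 95% Wilson interval. The Tbpl2 share ranges from 8.8% in XO3 to 68.8% in XO1, and the Taf4b share from 51.1% in XO2 to 85.2% in XY2.

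The 250 bases before the annotated start (RefSeq, GRCm38.p6) were examined for genes of the list, because TBP was named for its binding to the TATA box. Windows were available for 7 of the 9 genes, 8 windows in all with 2 for Gtf2a1. Those of Tbpl2, Tbp and the distal start of Gtf2a1 are shown because these genes stood for the opposite distributions among pools, with CG dinucleotides in capitals. The Tbpl2 window lies at chr2:24096596-24096845, minus strand, the Tbp window at chr17:15499638-15499887, plus strand, and the Gtf2a1 window at chr12:91590488-91590737, minus strand.
Tbpl2: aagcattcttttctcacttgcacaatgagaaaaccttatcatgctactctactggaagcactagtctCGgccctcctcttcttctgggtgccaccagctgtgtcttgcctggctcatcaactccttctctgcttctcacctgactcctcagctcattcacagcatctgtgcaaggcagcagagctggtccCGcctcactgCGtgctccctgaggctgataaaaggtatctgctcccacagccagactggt
Tbp: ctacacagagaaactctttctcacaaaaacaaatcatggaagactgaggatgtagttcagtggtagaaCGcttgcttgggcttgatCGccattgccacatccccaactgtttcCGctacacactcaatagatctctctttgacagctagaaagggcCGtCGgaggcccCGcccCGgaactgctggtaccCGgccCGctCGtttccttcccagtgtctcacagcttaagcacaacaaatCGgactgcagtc
Gtf2a1: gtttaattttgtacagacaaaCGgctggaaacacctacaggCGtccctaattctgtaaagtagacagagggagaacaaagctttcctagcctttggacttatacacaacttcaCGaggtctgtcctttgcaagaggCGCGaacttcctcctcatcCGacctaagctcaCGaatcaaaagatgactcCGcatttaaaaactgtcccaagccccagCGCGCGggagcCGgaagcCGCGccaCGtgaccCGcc
None of the 8 windows held TATAAA or TATATA on either strand. TATAAA was present in 12.4% and TATATA in 5.25% of the 32851 windows of the same length of all genes. No overlap between the 2 motifs was removed, and the absence of these letters says nothing about other motifs. The windows differed in CG dinucleotides. Tbpl2 had 3, below the median of 6 over all windows, whereas Tbp had 11, the 2 starts of Gtf2a1 13 and 16, Tbpl1 19, Taf3 21, Gtf2b 25 and Taf4 40. The GC content was 52.8% for Tbpl2 and 52.0% for Tbp, close to the median of 52.4% over all windows.

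Among the TAFs, Taf3, a TFIID subunit (ENSMUSG00000025782.12, chromosome 2, 9914552 to 10048596, minus strand), varied least of the 9 genes, with a 1.83-fold range over all pools. The levels were 52.0, 45.5 and 59.7 normalized CPM in XX, 35.2, 56.4 and 64.4 in XO, and 39.5, 37.1 and 54.9 in XY. The genotypes overlapped, and the pool numbered 3 was the highest of each. XX and XO differed by 0.01 ± 0.31 (edgeR adjusted p = 0.985), or by 0.47 relative to the median of all genes, with an interval of 0.627- to 1.62-fold.

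Taf4 (ENSMUSG00000039117.16, chromosome 2, 179912152 to 179976646, minus strand), the general form of this TFIID subunit, was counted with only 8 to 41 UMIs per pool. The levels were 10.7, 7.0 and 9.44 normalized CPM in XX, 10.4, 11.9 and 10.7 in XO, and 6.04, 2.60 and 12.4 in XY. XO pools were close to each other, while XY pools spanned both the lowest and the highest of the 9 values. XX and XO differed by -0.28 ± 0.49 (edgeR adjusted p = 0.771), or 0.18 relative to the median, and with TMM factors from genes the sign turned to 0.15. XY and XO differed by -0.64 ± 0.50 (edgeR adjusted p = 0.638), or -0.33 relative to the median.

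Taf4b (ENSMUSG00000054321.6, chromosome 18, 14783245 to 14900359, plus strand), the gonadal paralog, had 22.1, 18.2 and 16.1 normalized CPM in XX, 27.4, 12.4 and 16.9 in XO, and 27.0, 15.0 and 20.2 in XY. The genotypes overlapped, and the pool numbered 1 was the highest of each. XX and XO differed by -0.01 ± 0.37 (edgeR adjusted p = 0.989), or 0.45 relative to the median, with an interval of 0.563- to 1.75-fold, and with TMM factors from genes by 0.39. XY and XO differed by 0.12 ± 0.37 (edgeR adjusted p = 0.904), or 0.43 relative to the median.

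Taf4b exceeded Taf4 in every pool. It made up 67.4, 72.2 and 63.1% of the UMIs of both genes in XX, 72.6, 51.1 and 61.2% in XO, and 81.7, 85.2 and 62.0% in XY, out of 47 to 108 UMIs per pool. In XO2 and XO3 the Wilson intervals, 37.2 to 64.7% and 47.2 to 73.6%, included equal shares. The means were 67.6 ± 4.57% in XX, 61.6 ± 10.8% in XO and 76.3 ± 12.5% in XY (SD, n = 3), and the genotypes did not differ beyond the spread between pools (exact permutation test, two-sided, p = 0.264). Unlike the Tbpl2 share, which spanned 27.2 to 60.6% in XX, the Taf4b share kept to 63.1 to 72.2% in the same pools. It spanned more in the other genotypes, from 51.1 to 72.6% in XO and from 62.0 to 85.2% in XY. The Wilson intervals of XY2 (73.4 to 92.3%) and XY3 (52.6 to 70.6%) did not overlap.

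Taf7 (ENSMUSG00000051316.8, chromosome 18, 37640491 to 37644204, minus strand), a TFIID subunit that binds TAF1, had 32.1, 26.3 and 21.0 normalized CPM in XX, 62.1, 26.9 and 36.7 in XO, and 33.0, 27.4 and 22.6 in XY. Only XO1 stood well above the other pools. XX and XO differed by -0.66 ± 0.36 (edgeR adjusted p = 0.331), or -0.21 relative to the median of all genes. XY and XO differed by -0.60 ± 0.36 (edgeR adjusted p = 0.559), or -0.30 relative to the median.

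Gtf2a1 (ENSMUSG00000020962.14, chromosome 12, 91555262 to 91590487, minus strand), the TFIIA precursor, had 480, 537 and 462 UMIs in XX, 718, 279 and 294 in XO, and 599, 497 and 539 in XY. The levels were 171, 188 and 141 normalized CPM in XX, 372, 144 and 166 in XO, and 278, 162 and 163 in XY. XO1 and XY1, the pools of high mitochondrial share, were also the highest for Gtf2a1, and the part of this share in the result was not tested. XX and XO differed by -0.45 ± 0.42 (edgeR adjusted p = 0.564), which is 0.01 relative to the median of all genes, with an interval of 0.383- to 1.40-fold. Without XO1 and XY1 together, a choice made after seeing the data, the difference turned to 0.15.

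Gtf2b (ENSMUSG00000028271.9, chromosome 3, 142765045 to 142783606, plus strand), which encodes TFIIB, varied most of the 9 genes. It had 64, 64 and 148 UMIs in XX, 44, 613 and 1175 in XO, and 44, 110 and 314 in XY. The levels were 22.8, 22.4 and 45.1 normalized CPM in XX, 22.8, 317 and 663 in XO, and 20.5, 35.8 and 94.8 in XY, a 32.4-fold range over the 9 pools. XO2 and XO3 were far above all other pools, while XO1 lay among the lower XX pools. The coefficient of biological variation of Gtf2b within genotypes was 0.770, above that of 95.9% of the genes tested, compared with 0.516 for Tbp and 0.493 for Tbpl2. Gtf2b was lower in XX than in XO, with a log2 fold change of -3.47 ± 1.02 (edgeR adjusted p = 0.203), or -3.01 relative to the median of all genes, and lower in XY than in XO, with a log2 fold change of -2.73 ± 0.99 (edgeR adjusted p = 0.485), or -2.43 relative to that median. XX and XY differed by -0.74 ± 0.94 (edgeR adjusted p = 1.00), or -0.55 relative to the median. The difference of XX from XO passed in each fit that left out 1 pool, ranging from -4.00 to -2.49. Between XY and XO the call was lost without XO3, XY1 or XY2, with differences over all such fits from -3.48 to -1.75. With 2 surrogate variables Gtf2b was called in both, but the differences were -1.29 for XX against XO (edgeR adjusted p = 0.00991) and -1.07 for XY against XO (edgeR adjusted p = 0.00216).

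When XO1 and XY1 were left out together, as chosen after seeing their mitochondrial share, the difference between XX and XO was -2.03 for Tbp (edgeR adjusted p = 7.01e-04) and -4.00 for Gtf2b (edgeR adjusted p = 1.91e-04). Gtf2b was then also lower in XX than in XY, with a log2 fold change of -1.18 (edgeR adjusted p = 0.218). In this choice XO1, the lowest XO pool for both Tbp (27.4 normalized CPM) and Gtf2b (22.8), was removed along with the mitochondrial share. XY1 was likewise the lowest XY pool for both genes. Leaving out these pools thus raised the remaining means of both genes in XO and XY. The share of all genes called in this fit is not given here.

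Some markers of other ovarian cells moved with Tbp and Gtf2b. Of 10 granulosa cell markers, 7 had a row in the matrices and were detected, with summed levels of 52.2 to 104.8 normalized CPM in XX, 31.1 to 190 in XO and 47.4 to 110.2 in XY. The sum was 31.1 in XO1, 144 in XO2 and 190 in XO3, and most of it came from Esr2 and Cyp19a1, while Inha had 1 UMI and Amhr2 3 UMIs over all pools. Kitl did not follow, with 8.28, 5.69 and 9.60 in XO1 to XO3 and 14.0 to 19.2 in XX. Of 3 endothelial markers, all were detected, with sums of 19.3 to 50.6 in XX, 16.6 to 132 in XO and 28.4 to 59.2 in XY, mostly from Pecam1, whereas Cdh5 was highest in XY1, at 5.11, and at 0.517 and 0.565 in XO2 and XO3. For theca and stroma 6 of 8 markers were detected, with sums of 2.13 to 8.55 in XX, 2.26 to 4.65 in XO and 5.13 to 6.97 in XY. The single immune marker with a row, Cd68, was found in XO3 only, at 1.69, and no blood marker had a row. Oocyte markers were divided. Among the XO pools Zp1, Zp2, Zp3, Gdf9, Bmp15, Figla, Nobox and Kit were lowest in XO1 and highest in XO3. Zp1, which encodes a zona pellucida protein, had 14.0, 759 and 2166 normalized CPM in XO1 to XO3 and 26.0 to 129 in XX and XY, and Nobox, an oocyte transcription factor, had 56.4, 522 and 1138 in XO1 to XO3 and 51.6 to 185 in XX and XY. Oosp1, Dazl and Ddx4 were highest in XO1 among the XO pools, and Oosp1, an oocyte-secreted protein, had 9137, 2494 and 2495 there. The part of these markers in the Tbp and Gtf2b results was not tested.

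The levels of the 9 genes fell into opposite patterns across pools, which is given as a description over 9 pools that share depth, scaling and genotype. Tbp and Gtf2b had a Pearson r of 0.991 for log2(normalized CPM + 1), and of 0.980 with TMM factors from genes. Tbpl2 was high where Gtf2a1 (r = 0.78), Taf7 (0.73) and Taf4b (0.64) were high. It was low where Taf3 (-0.68), Gtf2b (-0.64) and Tbp (-0.63) were high, and with TMM factors from genes r was -0.83 with Gtf2b as well as with Tbp, but -0.39 with Taf3. Taf4 (-0.05) and Tbpl1 (-0.29) showed less of a relation to Tbpl2, though both were counted with few UMIs. Among the other 10992 genes tested, r with Tbpl2 ranked 1049 for Gtf2a1, 1377 for Taf7 and 1959 for Taf4b. Counted from the lowest, it ranked 2552 for Taf3, 2998 for Gtf2b and 3030 for Tbp. Many other genes thus had r further from zero, and these patterns were not particular to the 9 genes.

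**Figure D4:**
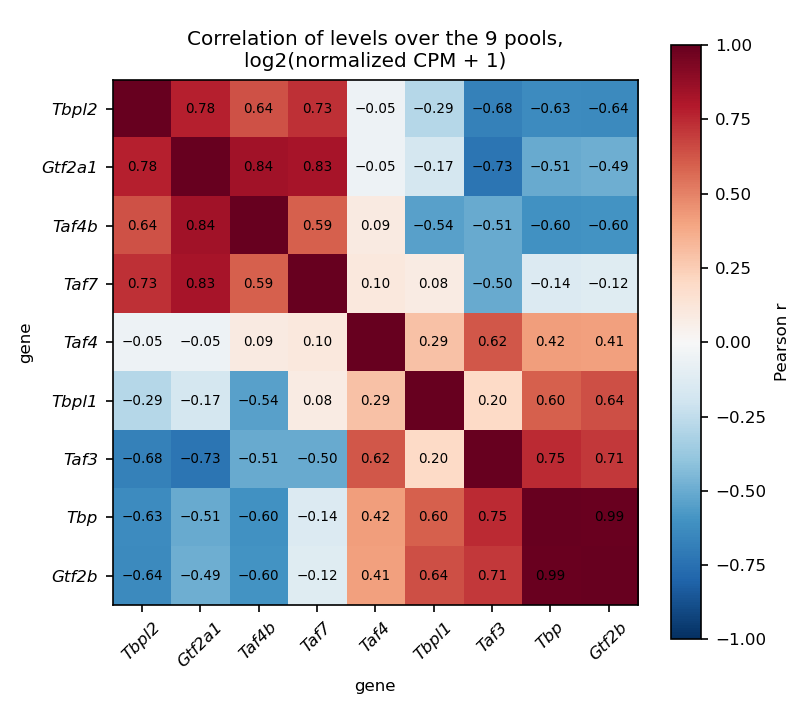
Pearson r over the 9 pools between the levels, log2(normalized CPM + 1), of each pair of the 9 genes (both axes), from blue for -1 to red for 1. Tbp and Gtf2b have the highest r, 0.991, and Tbpl2 has positive r with Gtf2a1, Taf4b and Taf7 but negative r with Taf3, Tbp and Gtf2b.

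The balance of the TFIIB and TFIIA genes also differed between pools. Gtf2b made up 11.8, 10.6 and 24.3% of the UMIs of both genes in XX, 5.77, 68.7 and 80.0% in XO, and 6.84, 18.1 and 36.8% in XY. Gtf2a1 thus outnumbered Gtf2b by 16.3-fold in XO1, whereas Gtf2b outnumbered Gtf2a1 by 4.00-fold in XO3. The genotypes did not differ beyond the spread between pools (exact permutation test, two-sided, p = 0.246). Gtf2a1l, which encodes a TFIIA precursor of germ cells, had 5.14, 4.45 and 8.15% of the UMIs of Gtf2a1 and Gtf2a1l in XX, 1.24, 12.8 and 24.8% in XO, and 1.48, 4.05 and 5.77% in XY. Again XO1 was at the lower end and XO3 at the upper end (p = 0.282, exact permutation test, two-sided).

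In the batch-regressed matrix, from which the authors removed variation assigned to surrogate variables, these differences between pools were largely gone. The SD within genotypes of Gtf2b decreased from 1.63 to 0.112 on the log2 scale, a 14.6-fold reduction, and that of Tbp from 0.899 to 0.110, or 8.16-fold. Gtf2a1 decreased 4.21-fold and Tbpl2 3.11-fold, from 0.786 to 0.253. The SD of Taf4 changed little (1.07-fold), and that of Tbpl1 increased from 0.431 to 0.506. The median over all genes tested went from 0.551 to 0.272. Mean batch-regressed values of Tbp were 5.63 in XX, 5.60 in XO and 5.58 in XY, those of Gtf2b 5.52, 6.19 and 5.94, and those of Tbpl2 5.07, 5.14 and 4.54, with XY the lowest. In limma on these values Gtf2b was still called as lower in XX than in XO, at -0.67 (limma adjusted p = 0.00159), but not between XY and XO (-0.25, limma adjusted p = 0.156), and Tbp was called in neither. Tbpl2 was called there as lower in XY than in XX by 0.53 (limma adjusted p = 0.109) and than in XO (-0.59, limma adjusted p = 0.0295), but the variation had already been removed from these values, so that the p-values are too small.

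**Figure D5:**
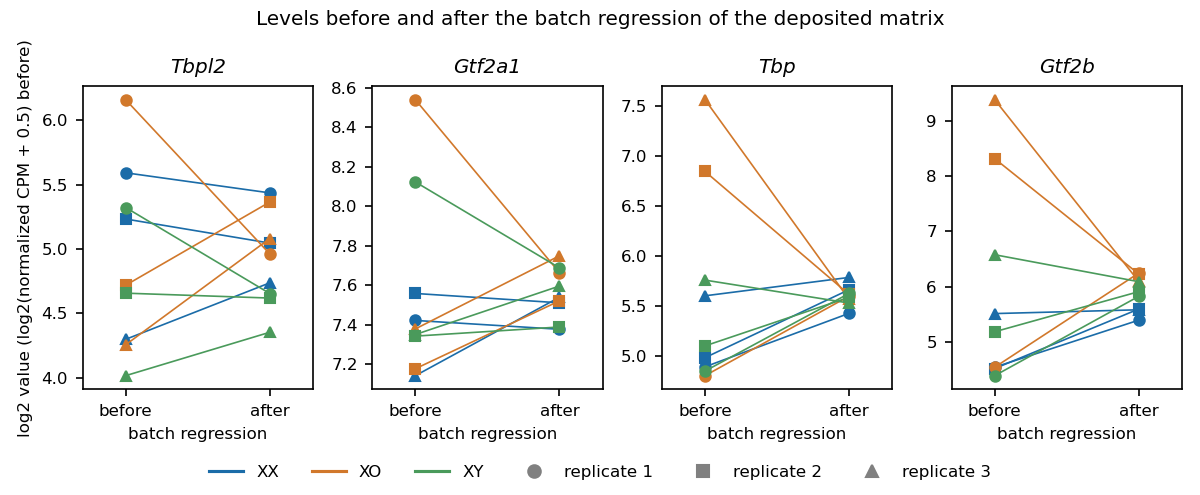
Levels of Tbpl2, Gtf2a1, Tbp and Gtf2b (y axes, log2) in each pool before and after the batch regression of the deposited matrix (x axis), coloured by genotype with a marker for the replicate. The lines of Tbp and Gtf2b converge, as their SDs within genotypes fell from 0.899 to 0.110 and from 1.63 to 0.112.

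Among the other 10992 genes tested, those most like Tbpl2 over the 9 pools were Snhg1 (r = 0.986), a host gene of small nucleolar RNAs, Gm14399 (0.967), Gm14322 (0.967), Oog2 (0.965), an oogenesin of oocytes, and Rrm2b (0.965), a subunit of ribonucleotide reductase. Oog2 and the Gm genes have close copies in the genome, and their counts may be divided with these. With TMM factors from genes 3 of the highest 5 were shared. In total 211 genes had r above 0.9, and the median r of all was -0.18. The lowest r was found for Gm16096 (-0.984), Thsd4 (-0.976) and Wdfy2 (-0.965). Snhg1 had 54.1, 44.5 and 26.8 normalized CPM in XX, 94.2, 35.2 and 27.1 in XO, and 53.0, 31.3 and 24.8 in XY, and like Tbpl2 it was highest in the pool numbered 1 of each genotype. Wdfy2 had the reverse order, with 1.04 in XO1 and 13.0 in XO3.

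The machinery was also examined as a wider list of 48 genes, including the 9, of which 42 had enough UMIs to be tested. Between XX and XO 1 gene was higher in XX, Taf9b, and 8 were lower in XX, so that 9 of 42 were called where 18.1% of all genes were. Of the 33 genes outside the 9, Cdk7, the kinase of TFIIH, was lower in XX with a log2 fold change of -3.21 ± 1.04 (edgeR adjusted p = 0.203), or -2.75 relative to the median. It had 9.62, 9.45 and 22.5 normalized CPM in XX and 5.18, 137 and 246 in XO, the same division of XO pools as in Gtf2b. Drap1, a subunit of the TBP-binding repressor NC2, was lower in XX with a log2 fold change of -3.47 ± 1.34 (edgeR adjusted p = 0.237), Gtf2h3, another TFIIH subunit, with -2.57 ± 0.94 (edgeR adjusted p = 0.224), Taf6 with -2.48 ± 0.78 (edgeR adjusted p = 0.203) and Taf8 with -1.48 ± 0.61 (edgeR adjusted p = 0.251), the last pair being TFIID subunits. Relative to the median of all genes these differences were -3.01 for Drap1, -2.11 for Gtf2h3, -2.02 for Taf6 and -1.03 for Taf8. XO1 was within or below the XX range in each of these 5 genes. The median log2 fold change of the 42 genes was -0.48, beside -0.46 for all genes. For XX against XY the only gene of the list called was Taf9b, where 5.8% of all genes were called. For XY against XO none was higher in XY and 7 were lower, where 9.93% of all genes were called, 8.24% as lower. These 7 were Gtf2b, Tbp, Cdk7, Drap1, Dr1 (the other subunit of NC2), Gtf2a1l and Taf1a (a subunit of the TBP complex of RNA polymerase I). In the fit with the replicate block, which treats pools numbered alike as paired, 8 were lower. Dr1 was not among them, but Btaf1, which removes TBP from DNA, and Ercc3, a TFIIH helicase, were. The share of all genes called in that fit is not given here. In the fit without the block none of the 42, after adjustment, was below 0.05 in edgeR in any comparison.

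The X-linked genes of the list were Taf9b, Taf1 and Taf7l. Taf9b, a paralog of the TFIID subunit TAF9, had 729, 812 and 644 normalized CPM in XX, 340, 354 and 323 in XO, and 513, 441 and 335 in XY. All XX pools lay above all others. XX was 2.15-fold higher than XO (log2 fold change 1.10 ± 0.30, edgeR adjusted p = 0.203) and 1.69-fold higher than XY (0.76 ± 0.30, edgeR adjusted p = 0.757). XY and XO overlapped (0.34 ± 0.30, edgeR adjusted p = 0.665). Relative to the medians of all genes the 3 Taf9b differences were 1.56, 0.95 and 0.64. Taf1, the largest TFIID subunit, had 55.6, 30.5 and 29.6 normalized CPM in XX, 34.7, 25.3 and 27.1 in XO, and 53.0, 37.4 and 23.8 in XY, and XX and XO differed by 0.41 ± 0.38 (edgeR adjusted p = 0.563), or 0.86 relative to the median. Taf7l, a paralog of Taf7 best known from male germ cells, had no more than 1 UMI in any pool and was not tested.

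Bmp15 and Gdf9 encode growth factors secreted by oocytes, and the study names both as targets of TBPL2. Bmp15, on the X chromosome, had 904, 810 and 1068 normalized CPM in XX, 633, 864 and 1165 in XO, and 367, 322 and 422 in XY. All XY pools lay below all XX and XO pools. XX was higher than XY by 1.32 ± 0.35 (edgeR adjusted p = 0.408). Gdf9, an autosomal gene, had 252, 272 and 319 normalized CPM in XX, 339, 869 and 2432 in XO, and 234, 264 and 350 in XY. Gdf9 was lower in XX than in XO, with a log2 fold change of -2.11 ± 0.62 (edgeR adjusted p = 0.203). The high XO mean came from XO2 and XO3, whereas XO1, at 339, was close to the highest XX pool, at 319. The paper, by contrast, reports no difference of Gdf9 between the genotypes in these data, nor by quantitative RT-PCR in oocytes of this size. Its fit included surrogate variables, and the Gdf9 difference with them is not given here. Across the 9 pools r with Tbpl2 was -0.06 for Bmp15 and -0.42 for Gdf9.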

How the data were processed

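RNA of 9 pools was measured by Smart-seq3. The authors aligned stranded reads with HISAT2 to GRCm38, kept reads of 5′ exons and deposited UMI counts per gene. The authors also deposited a normalized signal, called normalized CPM, and log2 values with batch effects regressed out. Normalized CPM is the count times 1 constant per pool, from the total of UMIs on genes and a TMM factor of the ERCC spike-ins. That factor compares the spike-ins with each other. Their share of the UMIs on genes and spike-ins, from 0.204% in XX3 to 0.862% in XY1, does not set it. The XO column without a number was taken as XO1, because the other XO columns match the titles of XO2 and XO3. The description of this sample begins with XO_2, however, so its number is uncertain. Whether it is the XO2 that the paper names cannot be told.

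Counts were tested with edgeR 4.0.16 (R 4.3.3; quasi-likelihood F test, filterByExpr by genotype, all 9 pools in 1 fit, 1 mean per genotype) using TMM factors of 79 ERCC spike-ins, and 10993 genes passed the filter. These factors differed from those of the deposited matrix by at most 1.1e-15. The threshold was the unadjusted p of 0.05 that the study used, with Benjamini-Hochberg values over all genes tested beside it. Surrogate variables, which the study included in its fit, were an alternative here, since 2 of them take 2 of 6 residual degrees of freedom. They were estimated anew here, with their number set to 2. The paper does not state how many it used, so they need not be those of the study. For shares of UMIs the test was an exact permutation over pools (two-sided), where 3 pools against 3 cannot give a p below 0.1. Self-tests were run on simulated data. The pools numbered alike in XO and XY deviated together from their genotype means (r = 0.818, 0.272 and 0.766 across genes). For number 2 this was weak, as XO2 had r = 0.707 with XY3. XX pools numbered 1 and 3 also deviated with their like-numbered pools, whereas XX2 did not. However, XX2 deviated with XO1 (r = 0.508) and XY1 (0.476), more than XX1 did (0.450 and 0.416). Likewise XX3 had r = 0.625 with XO2, beside 0.665 with XO3. The deviations of the 3 pools of a genotype cancel out, so these r values are tied to each other. Pairing by number is therefore uncertain, and no source says what a number marks. The replicate block treats pools numbered alike as paired, and thus also rests on the number given to XO1.

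The genes named are the 9 chosen genes, called or X-linked genes of the wider machinery list, the 5 genes of highest and 3 of lowest r with Tbpl2, Bmp15 and Gdf9, and markers (Zp1, Nobox and others) whose values stand beside a result. Zp1 and Nobox were picked after their values were seen. The genes and lists were chosen with earlier results of these data known. Alternatives were TMM factors from genes, DESeq2 1.42.0, no filter on low counts, a replicate block, 2 surrogate variables (sva 3.50.0), limma 3.58.1 on the batch-regressed log2 values, and leaving out pools. Promoter sequences came from RefSeq and coordinates from the deposited matrices.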

Additional observations from a re-analysis of the deposited data

How the results depend on the processing

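The calls rest on 3 pools per genotype, and counts of 4 to 41 UMIs per pool limit Tbpl1 and Taf4. Of the 9 genes, XX against XO gave 3 calls, but 1 with TMM factors from genes (Gtf2b), 2 with surrogate variables, where Tbp was lost, and 0 with adjusted p, and the 3 with limma on batch-regressed values were Gtf2b, Taf3 and Taf7, without Tbp and Tbpl1. XX against XY gave none, but 2 with 2 surrogate variables (Taf3 and Tbpl2), 3 with limma on batch-regressed values (Gtf2b, Taf3 and Tbpl2) and 1 without XO1 and XY1 (Gtf2b). XY against XO gave 2, but 1 with TMM factors from genes, 5 with surrogate variables and 0 with adjusted p, and limma gave 3 (Taf3, Taf7 and Tbpl2) without Gtf2b and Tbp. Leaving out 1 pool at a time gave 1 to 3, 0 to 1 and 0 to 3 calls. For the 42 genes, XX against XO gave 9 calls (1 higher and 8 lower in XX), but 15 with limma (13 higher and 2 lower), 14 without XO1 and XY1 and 0 with adjusted p; XX against XY gave 1, but 7 with surrogate variables, 10 with limma (7 higher and 3 lower in XX), 5 without both pools and 0 with adjusted p; XY against XO gave 7, all lower in XY, but 4 with TMM factors from genes, 13 with surrogate variables, 17 with limma (11 higher and 6 lower in XY), 12 without both pools and 0 with adjusted p. Leaving out 1 pool at a time gave 3 to 13, 0 to 3 and 0 to 13. Other than for adjusted p, the shares of all genes called in these alternatives are not given here. Whether the counts changed along with those of all genes therefore cannot be read from them. The permutation p ranged from 0.193 to 0.907 for the Tbpl2 share and from 0.0571 to 0.546 for the Taf4b share.

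With TMM factors from genes the log2 fold changes that turned sign were, for XX against XO, Tbpl2 0.19, Taf4 0.15, Taf4b 0.39, and for XX against XY, Tbp 0.0744, Taf4b 0.0248, Taf7 0.0755, and for XY against XO, Taf3 0.0635, Gtf2a1 0.0392. With DESeq2 the log2 fold changes that turned sign were, for XX against XO, Tbpl2 0.0503, Taf4 0.0309, Taf4b 0.26, and for XX against XY, Tbp 0.0959, Taf4b 0.0311, Taf7 0.0803. With XO1 and XY1 left out the log2 fold changes that turned sign were, for XX against XO, Tbpl2 0.70, Taf4b 0.40, Taf3 -0.16, Gtf2a1 0.15, and for XX against XY, Taf4b 0.0347, Taf7 0.023, and for XY against XO, Gtf2a1 0.17. With limma on batch-regressed values the log2 fold changes that turned sign were, for XX against XO, Tbp 0.0322, Taf4 0.38, Taf4b 0.35, and for XX against XY, Tbp 0.0447, Taf4b 0.0381, Taf7 0.0795, and for XY against XO, Taf3 0.45. With 2 surrogate variables the log2 fold changes that turned sign were, for XX against XY, Tbp 0.16, Taf4b 0.23, Taf7 0.12, and for XX against XO, Taf4 0.47, Taf4b 0.57, and for XY against XO, Taf3 0.0473. Leaving out 1 pool at a time turned the sign in at least 1 fit for Gtf2a1 in XX against XO (-0.69 to 0.15), Gtf2a1 in XX against XY (-0.40 to 0.0379), Gtf2a1 in XY against XO (-0.49 to 0.43), Gtf2b in XX against XY (-1.21 to 0.11), Taf3 in XX against XO (-0.16 to 0.20), Taf4 in XX against XY (-0.0676 to 1.10), Taf4b in XX against XO (-0.24 to 0.40), Taf4b in XX against XY (-0.33 to 0.0942), Taf4b in XY against XO (-0.10 to 0.55), Taf7 in XX against XY (-0.18 to 0.0808), Tbp in XX against XY (-0.39 to 0.23), Tbpl2 in XX against XO (-0.48 to 0.70), Tbpl2 in XY against XO (-0.93 to 0.32). None of these was a call in the main test except Tbp in XX against XO. The cause was not tested, except that fewer samples enter a fit without a pool. With the replicate block the permutation p of the Tbpl2 share was 0.306. Taf4b in XX against XO then turned to 0.0468, and Taf7 was called there in addition. XX pools numbered 1 and 3 deviated together with their like-numbered pools (r of 0.450 and 0.665 with XO, and 0.416 and 0.711 with XY). XX2 did not (r of -0.427 with XO2 and -0.058 with XY2), but it deviated with XO1 (0.508) and XY1 (0.476). For XY against XO, where like-numbered pools also deviated together but weakly for number 2, the block kept both calls among the 9 genes. Of the 42 it called 8, losing Dr1 and adding Btaf1 and Ercc3. XO1 and XY1 were left out together as a choice made after seeing the data.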
